A study of Mus musculus with 10 samples.

Results

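The S100 genes encode small EF-hand proteins that bind calcium and then dock onto partner proteins, among them annexins, cytoskeletal proteins and cell-surface receptors. Some members act inside the cell, where they alter membrane repair, motility and the turnover of other proteins. Others, above all S100a8 and S100a9, are released and act as danger signals on Ager (the receptor for advanced glycation end-products) and Tlr4. In the lung, S100a8 and S100a9 are best known from neutrophils, and S100a4 from mesenchymal cells and macrophages, whereas S100a6, S100a11 and S100a14 are found in epithelia that are being reshaped. The 10 members described here (S100a1, S100a4, S100a6, S100a8, S100a9, S100a10, S100a11, S100a13, S100a14 and S100a16) were taken by gene symbol from the 31053 genes of each matrix, and all 10 were found. All 10 passed the filter on low counts in each comparison. A further 8 S100 genes were listed as a group for comparison, and 7 of them were present.

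The members were followed in sorted lung epithelial cells of mice that carry Sftpc-CreERT2, a tamoxifen-inducible Cre driven by the surfactant protein C promoter of alveolar type 2 (AT2) cells. In Confetti mice (Sftpc-CreERT2;R26R-Confetti), the Cre switches on a fluorescent colour alone, and 1 RFP and 1 YFP library were made. In Red2Kras mice (Sftpc-CreERT2;Red2Kras), RFP cells are mutant while YFP cells of the same lungs stay wildtype, and 2 RFP and 2 YFP libraries were made at each of 4 days and 2 weeks. All groups received 3 doses of tamoxifen (0.2 mg per g body weight), so the controls carry the Cre and the drug as well. According to the methods, mice were 8 weeks old and of both sexes, each library pooled at least 2 lungs, EpCAM+ cells of 1 colour were sorted, and the Confetti lungs were taken at 2 weeks, a time the sample labels do not state. The methods also state that libraries were made on 2 days, without saying which on which. They list 1 Confetti sample with both colours isolated, so the 2 Confetti libraries may come from the same lungs and are not replicates of a colour.

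The 10 libraries held 42012 cell barcodes, of which 32698 passed the quality filters and 30599 (93.6%) had no UMI (unique molecular identifier, 1 counted RNA molecule) of Ptprc, the pan-leukocyte gene. All results below are from these Ptprc 0 cells, 1138 to 4306 per library, unless stated otherwise. Their UMIs spanned 8163707 to 71669755 per library, and median depth was 15685 and 13199 UMIs per cell in the 2-week RFP libraries against 3251 to 6577 in the other 8. The share of Ptprc 0 cells was lowest in 2-week YFP replicate 2 (65.2%), and cells of immune clusters still made up 9.32% of that library's Ptprc 0 cells and 7.60% in 4-day RFP replicate 2, against 0.289% to 1.38% in the rest. Pairs of libraries shared at most 11 barcodes. The epithelial and AT2 labels were checked on Epcam (182 to 725 CPM) and Sftpc (57436 to 166669 CPM) in every library, and neither gene was near 0 in any of them. Levels of whole libraries are in CPM, UMI counts scaled to the size of the library and by TMM factors, and levels within a cluster are scaled to that cluster's own UMIs with no TMM factor. In summed cells, fewer cells with a gene and less RNA of it per cell cannot be told apart.

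All 10 members lie on chromosome 3 (GRCm38, GENCODE M21). S100a1, S100a13, S100a14, S100a16, S100a4, S100a6, S100a8 and S100a9 sit within 185 kb (chr3:90511034-90695721), and S100a11 (chr3:93520488-93526287) and S100a10 (chr3:93555080-93564643) lie 2.82 Mb further on. S100a6 spans chr3:90612882-90624181 and S100a14 chr3:90526856-90528837, both on the plus strand, and S100a16 spans chr3:90537254-90543151. S100a1 (chr3:90511034-90514392, minus strand) and S100a13 (chr3:90514435-90524581, plus strand) start 43 bases apart and point away from each other. Exons of S100a4 (chr3:90603771-90606045) overlap those of Gm42674 on the same strand, so reads in the overlap could be lost or shared. S100a8 spans chr3:90668978-90670035 and S100a9 chr3:90692632-90695721.

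RefSeq promoter windows (GRCm38.p6, 250 bases before to 50 after a start) were available for 8 members in 9 windows, S100a16 having a pair. They are shown for S100a6, S100a11 and S100a16, whose levels were higher in RFP than in YFP libraries in at least 3 of 4 pairs, followed by S100a13, whose level was nearly even over the libraries. Capitals mark the AP-1 motif TGANTCA (N, any base; read on both strands), the site of the Jun and Fos factors.
S100a6 (plus strand, chr3:90612644-90612943): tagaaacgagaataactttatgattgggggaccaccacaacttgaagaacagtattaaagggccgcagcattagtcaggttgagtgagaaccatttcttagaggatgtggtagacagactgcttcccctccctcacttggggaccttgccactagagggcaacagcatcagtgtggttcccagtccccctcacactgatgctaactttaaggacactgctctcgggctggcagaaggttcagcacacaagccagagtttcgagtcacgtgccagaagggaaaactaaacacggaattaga
S100a11 (plus strand, chr3:93520246-93520545): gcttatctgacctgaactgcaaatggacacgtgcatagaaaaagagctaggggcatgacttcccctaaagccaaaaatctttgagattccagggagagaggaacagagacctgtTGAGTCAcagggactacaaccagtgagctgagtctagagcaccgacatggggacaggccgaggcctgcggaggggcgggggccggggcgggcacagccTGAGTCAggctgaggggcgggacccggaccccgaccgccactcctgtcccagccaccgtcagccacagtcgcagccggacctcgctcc
S100a16, downstream start (plus strand, chr3:90540896-90541195): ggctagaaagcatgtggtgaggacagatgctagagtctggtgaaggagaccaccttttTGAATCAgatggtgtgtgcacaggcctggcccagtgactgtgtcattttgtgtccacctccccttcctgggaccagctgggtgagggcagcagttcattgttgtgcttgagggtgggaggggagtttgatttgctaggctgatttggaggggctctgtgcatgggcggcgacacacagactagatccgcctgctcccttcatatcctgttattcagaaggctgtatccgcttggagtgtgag
S100a13 (plus strand, chr3:90514185-90514484): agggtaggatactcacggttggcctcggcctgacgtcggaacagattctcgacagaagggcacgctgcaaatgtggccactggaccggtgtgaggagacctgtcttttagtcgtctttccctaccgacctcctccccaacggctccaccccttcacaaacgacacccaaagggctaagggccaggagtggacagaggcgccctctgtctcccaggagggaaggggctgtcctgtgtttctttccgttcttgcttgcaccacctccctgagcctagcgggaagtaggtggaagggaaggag
The S100a11 window held 2 matches, beginning 136 and 38 bases before the start, and the downstream S100a16 window held 1, beginning 192 bases before it. The motif was therefore in 2 of the 9 member windows and in 7.81% of the 32851 windows of the table. No member window held the NF-kB motif, which 8.46% of all windows held, or the TEAD motif GGAATG, held by 14.7%. The GC box GGGCGG stood in 3 member windows (S100a11, with 3 copies, S100a16 and S100a9) and in 35.7% of all, and the TATA box, searched as TATAAA on the given strand, in 3 (S100a4, S100a8 and S100a9) and in 8.32% of all. The S100a4 and S100a8 TATA matches began 31 and 30 bases before the start, while that of S100a9 began at the start itself. The S100a13 window shares 204 bases with that of S100a1 and held none of the 5 motifs. A match is a description of the sequence only.

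The widest differences between libraries in absolute CPM were those of S100a6, or calcyclin, a partner of annexins and of the ubiquitin-ligase adaptor Cacybp. In the Confetti libraries S100a6 was at 382 (RFP) and 314 CPM (YFP). Among Red2Kras RFP libraries it was at 741 and 7835 CPM at 4 days and at 4945 and 6258 CPM at 2 weeks. Among Red2Kras YFP libraries it was at 331 and 193 CPM at 4 days and at 469 and 2888 CPM at 2 weeks. All 4 RFP libraries thus lay above both Confetti libraries, 4-day RFP replicate 1 by the least, and 2-week YFP replicate 2 lay above that RFP library. Both RFP libraries of a time lay above both Confetti libraries for 22.61% of all genes at 4 days and 36.35% at 2 weeks. Within same-numbered pairs, RFP exceeded YFP by 2.24-fold and 40.5-fold at 4 days and by 10.6-fold and 2.17-fold at 2 weeks.

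S100a14, a member found mainly in epithelia, was likewise higher in RFP libraries, but its highest level was in 2-week RFP replicate 2 and not in 4-day RFP replicate 2. It was at 26.0 and 17.4 CPM in the Confetti libraries. In Red2Kras RFP cells it was at 57.0 and 400.2 CPM at 4 days and at 409 and 1057 CPM at 2 weeks. In YFP cells it was at 22.7 and 35.7 CPM at 4 days and at 41.4 and 207 CPM at 2 weeks. RFP exceeded YFP in 4 of 4 pairs, by 2.51-, 11.2-, 9.89- and 5.12-fold, and the 2 RFP libraries lay above both YFP libraries at each time, as they did for 12.6% of all genes at 4 days and 27.1% at 2 weeks. S100a16, a broadly expressed member, moved over a smaller range: 59.6 and 49.2 CPM in Confetti, 65.6 and 108 CPM in 4-day RFP, 143 and 256 CPM in 2-week RFP, 67.8 and 52.5 CPM in 4-day YFP, and 55.3 and 89.4 CPM in 2-week YFP. It was higher in RFP in 3 of 4 pairs, the exception being 4-day replicate 1 (0.967-fold).

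The annexin-binding pair differed less. S100a11, which docks on Anxa1, was at 980 and 803 CPM in Confetti and was higher in RFP in 4 of 4 pairs (1.17-, 1.61-, 1.69- and 1.25-fold). Its RFP values were 1064 and 2664 CPM at 4 days and 2681 and 2278 CPM at 2 weeks. Its YFP values were 912 and 1652 CPM at 4 days and 1591 and 1828 CPM at 2 weeks, so 3 of 4 YFP libraries also lay above both Confetti libraries. S100a10, or p11, which holds Anxa2 at the plasma membrane and binds Plat (tissue plasminogen activator), stayed between 356 and 751 CPM over the 10 libraries. S100a1, a regulator of calcium pumps, and S100a13, which aids the release of Fgf1 and Il1a, were the most even, at 224 to 373 CPM and 218 to 350 CPM. Of the 10 members, S100a6, S100a11 and S100a14 were higher in RFP in all 4 pairs and none was lower in all 4, while 16.1% of the 14035 genes tested were higher and 15.9% lower in all 4.

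**Figure D1:**
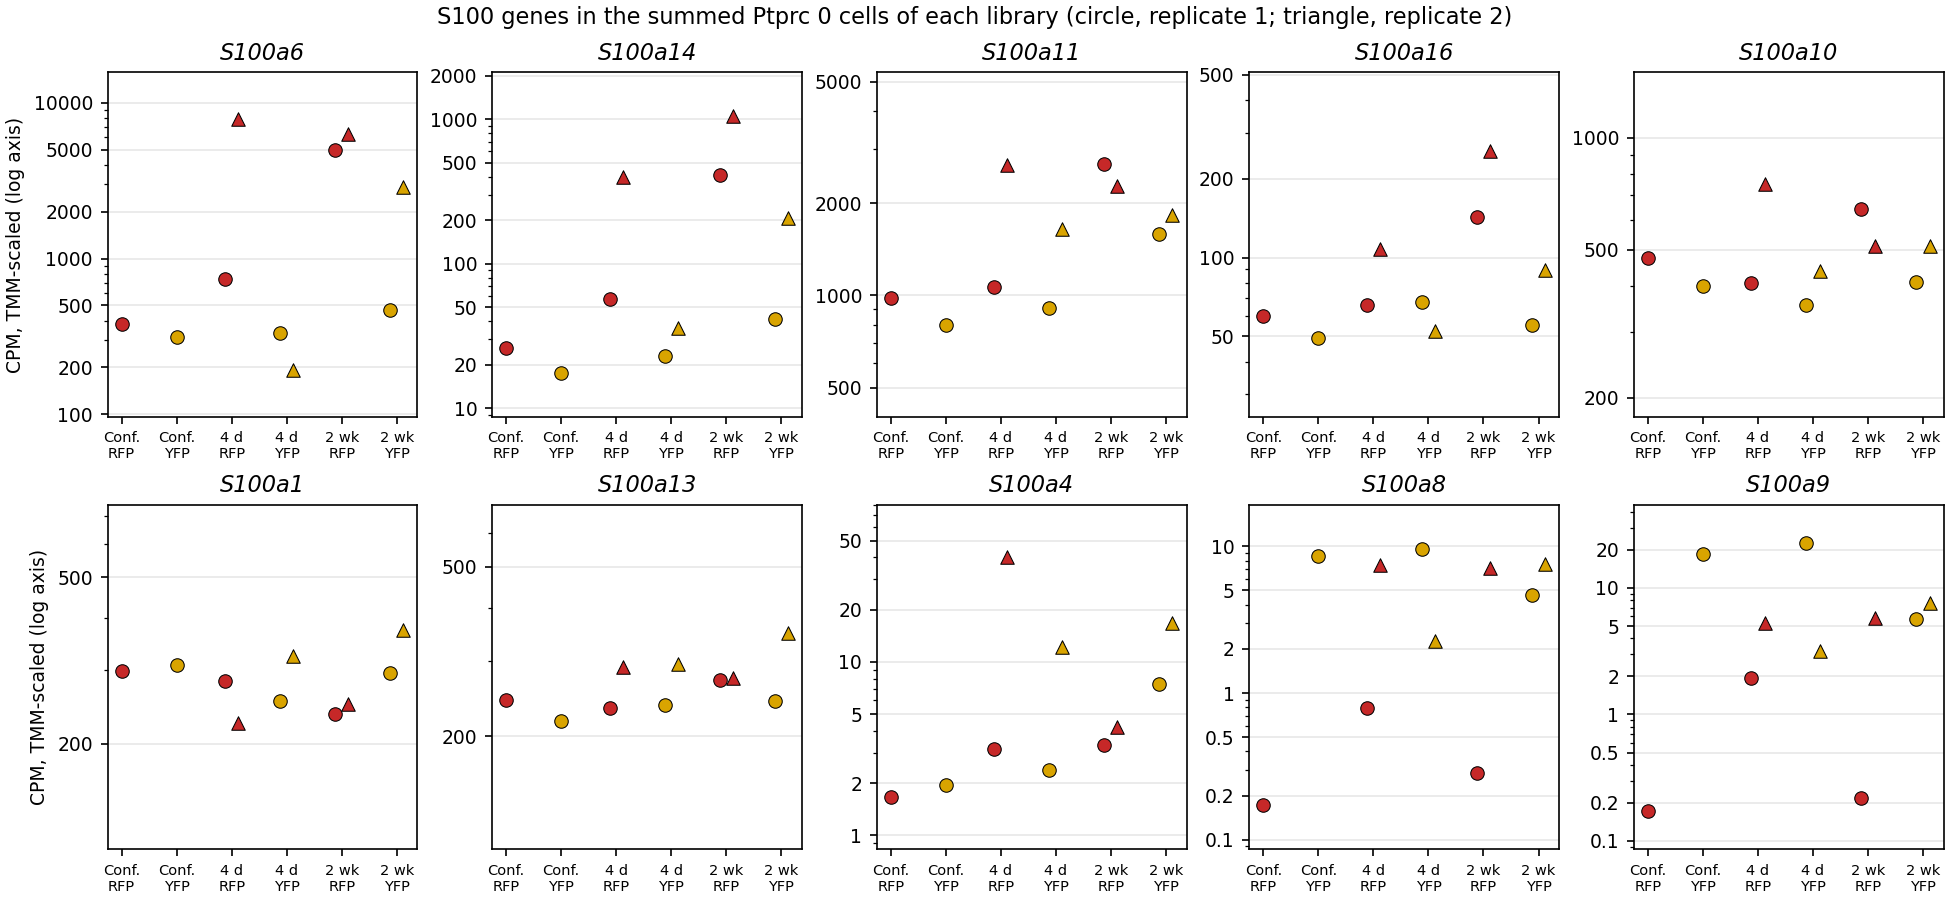
Levels of the 10 S100 genes in CPM (TMM-scaled, log axes that differ between panels) in the summed Ptprc 0 cells of each library, by group, where red is RFP, yellow YFP, Conf. is Confetti, circles are replicate 1 and triangles replicate 2. S100a6 and S100a14 are high in 4-day RFP replicate 2 and both 2-week RFP libraries, S100a1 and S100a13 are nearly even, and S100a4 is highest in 4-day RFP replicate 2.

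These differences were tested in edgeR's quasi-likelihood model across all genes with Benjamini-Hochberg adjustment, and no member passed an adjusted p of 0.05 in any of the 10 comparisons. The sharpest contrast set 2-week RFP against Confetti. S100a14 differed by 5.11 on the log2 scale (SE 1.19, edgeR adjusted p = 0.0936), S100a16 by 1.88 (SE 0.42, adjusted p = 0.0927), S100a6 by 4.02 (SE 1.23, adjusted p = 0.119) and S100a11 by 1.48 (SE 0.50, adjusted p = 0.135). S100a10 differed by 0.40 (SE 0.36, adjusted p = 0.495), S100a13 by 0.24 (SE 0.29, adjusted p = 0.618) and S100a1 by -0.32 (SE 0.28, adjusted p = 0.475). Of all 14828 genes, 3 were called (0.0202%), and 3675 had an unadjusted p under 0.05, among them 4 members. The members' median log2 difference was 1.27, against 0.02 for all genes tested. The members were chosen with earlier results of these data known, so this median is a description only. For 8 members the 2-week RFP and Confetti libraries did not overlap, 7 higher and 1 (S100a1) lower, but this held for 72.2% of all genes in these 2-against-2 sets. DESeq2 called 4 members here (S100a6, S100a11, S100a14 and S100a16) and 12.8% of the genes it tested. With the sums restricted to cells of alveolar clusters, edgeR called S100a14 (log2 difference 5.01, adjusted p = 0.0495) and 5.38% of genes.

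The comparison of RFP with YFP cells over both times rests on 4 libraries a side. S100a14 differed by 2.74 (SE 0.72, edgeR adjusted p = 0.187), S100a6 by 2.86 (SE 0.93, adjusted p = 0.226) and S100a16 by 0.97 (SE 0.32, adjusted p = 0.226). S100a11 differed by 0.51 (SE 0.32, adjusted p = 0.472), S100a10 by 0.41 (SE 0.24, adjusted p = 0.436), S100a1 by -0.35 (SE 0.19, adjusted p = 0.412) and S100a13 by -0.10 (SE 0.19, adjusted p = 0.841). No gene was called (0% of 14035, with 2208 at an unadjusted p under 0.05, 3 members among them). The labels number the replicates but state no pairing. Same-numbered RFP and YFP libraries were taken as pairs because they deviated alike in these same data. With the pair as a block edgeR called S100a14 (log2 difference 2.61, SE 0.37, adjusted p = 0.0450), higher in RFP in 4 of 4 pairs, beside 0.684% of all genes. The block leaves few degrees of freedom: S100a14 kept its call without pair 1 of 4 days (adjusted p = 0.0131), where S100a16 (adjusted p = 0.0178) and 9.85% of all genes were called too, and no member was called when any other pair was left out. DESeq2 called S100a6, S100a14 and S100a16 without the block, with 5.60% of genes.

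**Figure D2:**
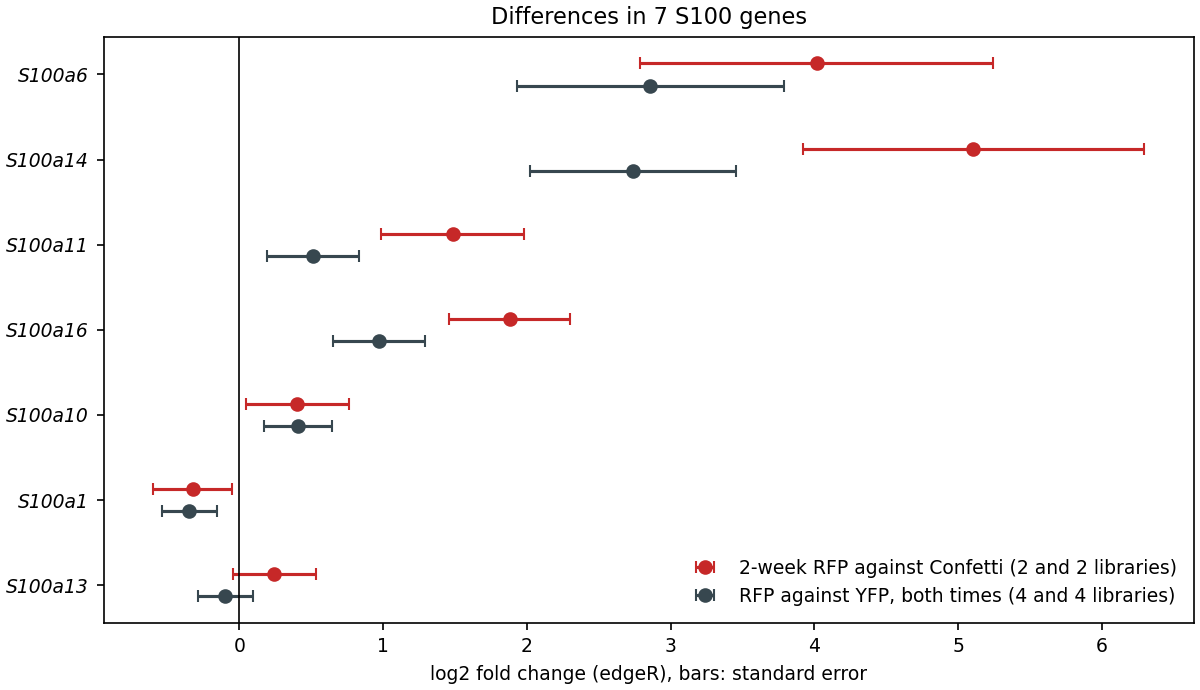
Log2 fold changes with standard errors (edgeR) for 7 S100 genes in 2-week RFP against Confetti libraries (red) and in RFP against YFP libraries over both times (grey). S100a14 has the largest value in the first comparison (5.11) and S100a6 in the second (2.86), S100a10, S100a1 and S100a13 lie between -0.35 and 0.41, and no value has an adjusted p under 0.05 in these fits.

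At 2 weeks, RFP differed from YFP by 2.57 for S100a14 (SE 1.06, edgeR adjusted p = 0.385), 1.46 for S100a16 (SE 0.42, adjusted p = 0.336), 1.74 for S100a6 (SE 1.12, adjusted p = 0.521) and 0.54 for S100a11 (SE 0.49, adjusted p = 0.647). S100a1 and S100a4 were lower in both RFP libraries than in both YFP libraries, as were 22.6% of all genes. edgeR called 0% of genes here (1883 at an unadjusted p under 0.05), and DESeq2 called S100a16 and 2.27% of genes. At 4 days, RFP differed from YFP by 4.03 for S100a6 (SE 1.23) and 2.97 for S100a14 (SE 1.08), both at an edgeR adjusted p of 0.999, with 0% of genes called and 514 at an unadjusted p under 0.05. DESeq2 called no member at 4 days. The 4-day values rest largely on replicate 2. Against Confetti, 4-day RFP differed by 3.63 for S100a6, 3.42 for S100a14 and 3.58 for S100a4 (each edgeR adjusted p = 0.792), and DESeq2 called S100a4 there, with 0.863% of genes. In 4-day RFP replicate 2, cells of immune clusters held 365 of the 383 S100a4 UMIs, and their part in this call was not tested.

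In the summed YFP cells (wildtype label) of Red2Kras lungs at 2 weeks, the values leaned the same way without passing the test. DATP-like cells, a class described below, were few in both libraries but held most of their S100a6 UMIs. The part of these few cells in the lean was not tested. Against Confetti, S100a14 differed by 2.54 (SE 1.06), S100a6 by 2.28 (SE 1.14), S100a11 by 0.95 (SE 0.49) and S100a16 by 0.42 (SE 0.41), with edgeR adjusted p between 0.788 and 0.806. S100a4 differed by 2.73 (SE 1.21) and is described with the immune markers. Both of these YFP libraries lay above both Confetti libraries for S100a4, S100a6, S100a11 and S100a14, as they did for 24.45% of all genes. S100a14 alone among the members had an unadjusted p under 0.05, and 0.00674% of genes were called. 2-week YFP replicate 2, which has the higher S100a6 and S100a14 of the pair, is also the library with 9.32% immune-cluster cells. Its macrophage-like cells were at 790 CPM of S100a6, against 2888 CPM in the whole library, and the part of immune-cluster cells was not tested. These comparisons share the Confetti libraries with those of RFP cells, so both sets of values can lean alike through these controls alone, and how far was not tested. The colour difference at 2 weeks set against that at 4 days called no member and 0% of genes in edgeR (no member and 267 genes at an unadjusted p under 0.05). The comparisons of 2-week with 4-day cells called no gene either, with 1 member of RFP cells (S100a16, log2 difference 1.20, edgeR adjusted p = 0.567) and none of YFP cells at an unadjusted p under 0.05, beside 1287 and 185 of all 14828 genes. Nor did 4-day YFP against Confetti (186 genes and no member at an unadjusted p under 0.05). DESeq2 called no member in any of these 5 comparisons.

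To place the members within the epithelium, cells were clustered on variable genes with all S100 genes left out, and clusters were named from marker lists. AT2-like cells express surfactant genes. Primed AT2-like is a name given here from markers such as Lcn2, Il33 and Ly6i, DATP-like cells resemble damage-associated transient progenitors (marked by Krt8, Cldn4 and Sfn), and Cd177 mixed-like cells express Cd177. The primed class joins a cluster led by heat-shock genes (Hspb1, Hspa1b and Hspa1a), with Il33 and Lcn2 among its top genes, and a smaller one led by Iigp1 and Ly6i with interferon-response genes such as Isg15 and Gbp2. Clusters also followed libraries: AT2-like cells made up 87.2% to 93.0% of the Confetti and 4-day replicate 1 libraries and 1.24% to 17.9% of the rest. An unnamed cluster led by Apoc1 and Scd1 was the largest in 4-day RFP replicate 2, 4-day YFP replicate 2 and 2-week YFP replicate 2, primed AT2-like cells in both replicate 1 libraries of 2 weeks, and Cd177 mixed-like cells (52.0%) in 2-week RFP replicate 2. The levels below are therefore given within libraries and carry no test.

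S100a6 was higher in DATP-like than in AT2-like cells in every library that held at least 20 of each. It was at 19213 and 21358 CPM in DATP-like cells of the 4-day RFP libraries, at 21407 and 15793 CPM in those of 2-week RFP and at 26187 and 33547 CPM in those of 2-week YFP, a span of 2.12-fold. These are wildtype-label cells in the last case, 31 and 33 in number. The DATP-like class joins a cluster led by Procr and F3, with 59.3% of its cells from 2-week RFP replicate 2, and a cluster led by Ndrg1 and Slc20a1, with 74.9% from 4-day RFP replicate 2. AT2-like cells of the 10 libraries ranged from 128 to 956 CPM with a median of 319.9, and those of the 2-week RFP libraries (313 and 412 CPM) sat beside those of Confetti (351 and 317 CPM). DATP-like cells exceeded AT2-like cells of the same library in 6 of 6 libraries, by a median of 61.9-fold. The unnamed cluster led by Mcpt8 and Gzme, with 266 cells in 2-week RFP replicate 1, was at 15293 CPM of S100a6, near the lowest DATP-like value, and at 1323 CPM of S100a14, so high levels were not particular to DATP-like cells. Cd177 mixed-like cells were at 505 to 3068 CPM in 5 libraries. Primed AT2-like cells were at 13.1 to 779 CPM and lay below AT2-like cells in 8 of 10 libraries.

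S100a14 was also highest of these states in DATP-like cells, with 970 to 2533 CPM. It was at 182 to 306 CPM in Cd177 mixed-like cells and 19.03 to 71.0 CPM in AT2-like cells. Unlike S100a6, it was higher in AT2-like cells of the 2-week RFP libraries (62.8 and 68.2 CPM) than in those of Confetti (24.15 and 19.03 CPM). The median DATP-like to AT2-like ratio was 32.7-fold, again in 6 of 6 libraries. Unlike S100a6, S100a14 was higher in primed AT2-like than in AT2-like cells in 8 of 10 libraries (median 1.28-fold). The median DATP-like to AT2-like ratio was 5.66-fold for S100a11 (3638 to 6498 CPM against 856 to 1470 CPM), 5.08-fold for S100a16 (203 to 523 CPM against 40.7 to 91.8 CPM), 4.04-fold for S100a10 (1060 to 2531 CPM against 268 to 502 CPM) and 2.22-fold for S100a13 (319 to 794 CPM against 157 to 272 CPM), each in 6 of 6. S100a1 was the exception, higher in DATP-like cells in 4 of 6 libraries with a median of 1.23-fold. S100a10, S100a11 and S100a16 were also higher in cycling-like than in AT2-like cells in 10 of 10 libraries, by medians of 1.72-, 2.15- and 1.36-fold, and S100a14 in 9 of 10 (2.14-fold). S100a11 was higher in primed AT2-like than in AT2-like cells in 10 of 10 (1.52-fold). S100a16 was not confined to alveolar cells, at 276 to 462 CPM in endothelial-like cells of 6 libraries. In macrophage-like cells S100a6, S100a10 and S100a13 lay above the AT2-like level in 4 of 4 libraries (medians 4.145-, 3.18- and 1.42-fold). S100a1 did so in 3, S100a11 in 2, S100a14 in 1 and S100a16 in 0 of 4. S100a10 parted from S100a11 in Cd177 mixed-like cells, where S100a11 was above the AT2-like level in 5 of 5 libraries (2.16-fold) and S100a10 in 2 of 5 (0.798-fold).

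**Figure D3:**
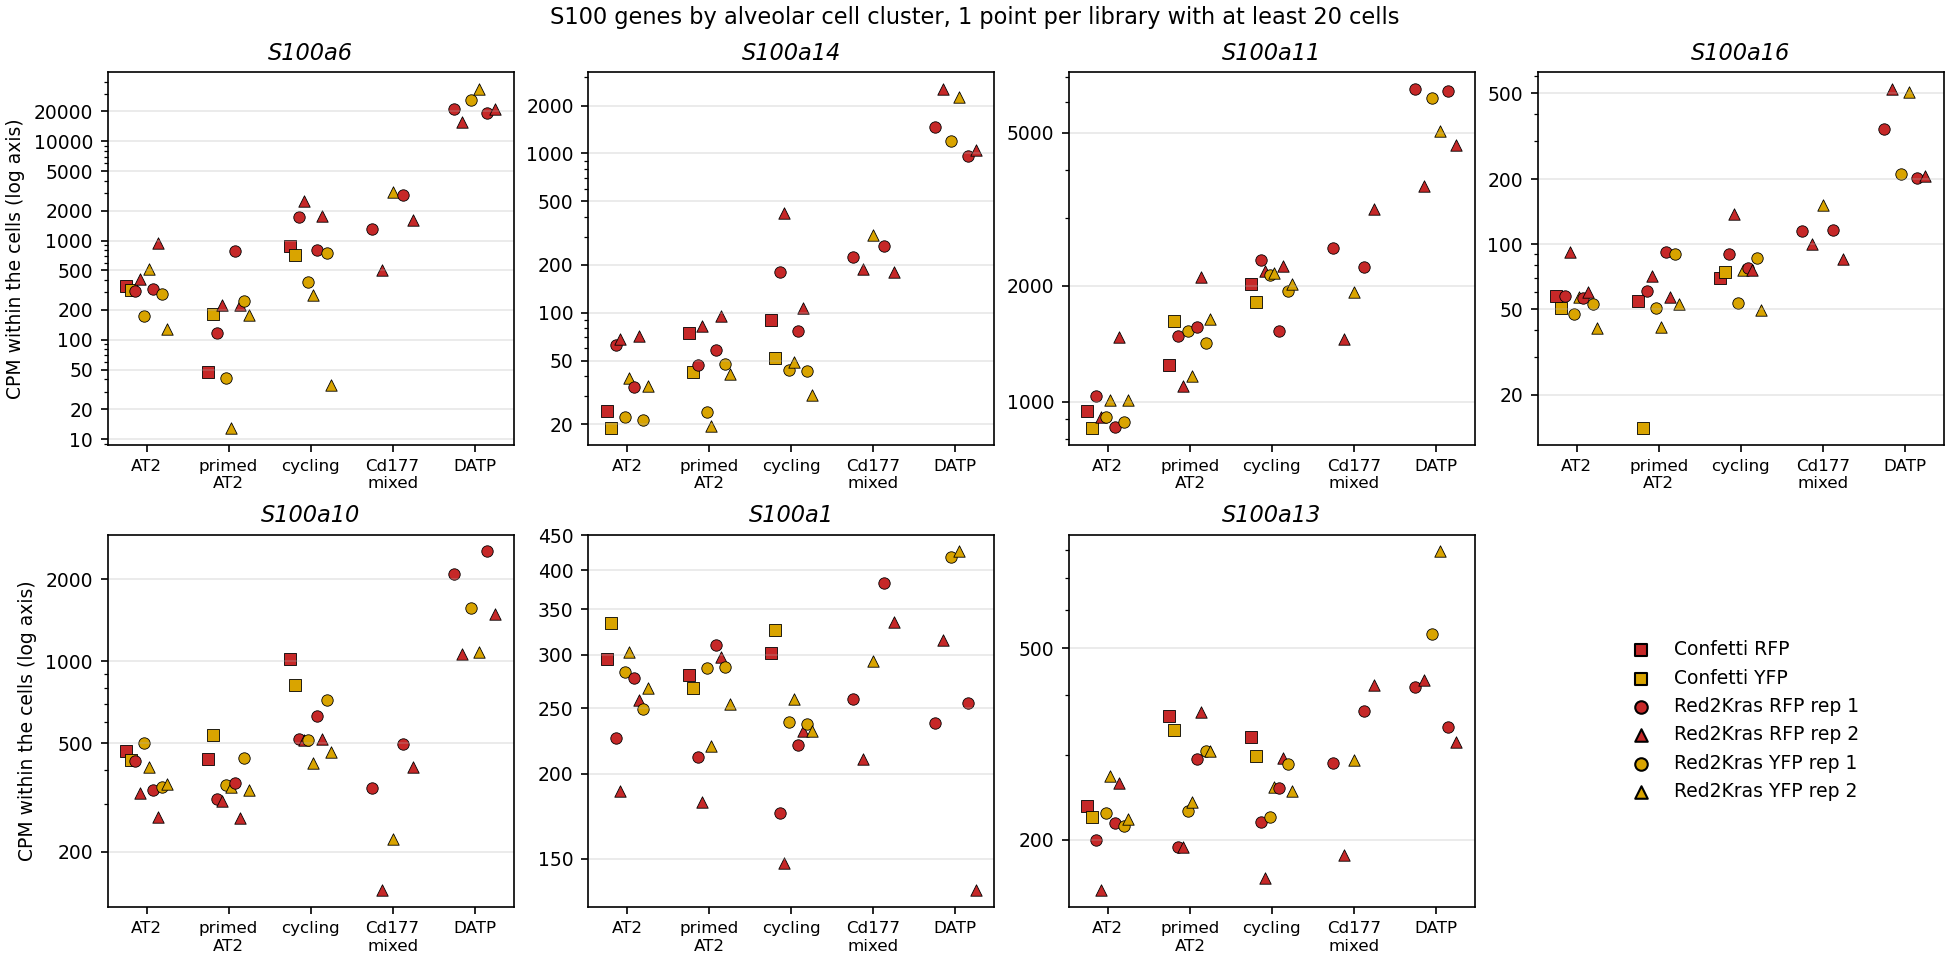
CPM of 7 S100 genes (log axes that differ between panels) within cells of 5 kinds of alveolar cluster, with 1 point per library holding at least 20 such cells, coloured by RFP or YFP, with squares for Confetti. In the DATP column the S100a6 points, RFP and YFP alike, lie at 15793 CPM or above and apart from every other column, and S100a1 shows no such step.

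Single cells gave the same picture. Within 2-week RFP replicate 1, an S100a6 UMI was found in 99.3% of DATP-like and 51.6% of AT2-like cells, and an S100a14 UMI in 93.1% and 32.6%. In replicate 2 the S100a6 shares were 99.5% and 35.9% and the S100a14 shares 98.4% and 28.2%. These shares were not matched for depth. By library, 16.6% and 15.6% of Confetti cells and 68.2% and 68.8% of 2-week RFP cells had an S100a6 UMI. After each cell was thinned to 2000 UMIs, leaving out 2 to 19 shallower cells in these libraries, the shares were 12.9% and 12.7% against 41.1% and 54.5%. For S100a14 the thinned shares were 4.35% and 3.46% against 28.4% and 50.1%. Endothelial-like cells, in which free RNA may be read, had an S100a6 UMI in 11.97% and an S100a14 UMI in 0.971% after thinning (median depth before it 3720 UMIs, against 3251 and 4000 in Confetti cells). The 2-week RFP shares lie above these pooled ones for both genes, but the 27 endothelial-like cells of 2-week RFP replicate 1 had more than those of other libraries, with an S100a6 UMI in 37.0% before thinning (664 CPM, against 313 CPM in its AT2-like cells) and an S100a14 UMI in 11.1% (36.6 CPM). Within the Confetti libraries an S100a6 UMI was found, before thinning, in 16.1% (RFP) and 10.3% (YFP) of endothelial-like cells, at 300.1 and 62.8 CPM against 351 and 317 CPM in AT2-like cells, so the RFP library did not separate them and the YFP library did.

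DATP-like cells held more of the S100a6 UMIs than their share of cells in all 10 libraries, but not most of them everywhere. Only 6 of the libraries held at least 20 such cells. The shares are not matched for depth: median UMIs per cell were 12319 and 5325 in the DATP-like clusters and 3841 to 4497 in the AT2-like ones. They were 38.8% of cells and 92.5% of S100a6 UMIs in 2-week RFP replicate 2, and 33.1% of cells and 93.7% of UMIs in 4-day RFP replicate 2. In 4-day RFP replicate 1 they were 1.03% of cells and 42.2% of S100a6 UMIs. In 2-week RFP replicate 1 they were 13.9% of cells and 62.3% of S100a6 UMIs, and an unnamed cluster led by Mcpt8 and Gzme, with 266 of its 282 cells in that library, added 23.8%. Among 2-week YFP libraries, 0.720% and 2.90% of cells held 58.0% and 81.6% of S100a6 UMIs. In Confetti libraries, AT2-like cells held 81.1% and 79.9% of S100a6 UMIs, and in 4-day YFP replicate 1 they held 71.4%. In 4-day YFP replicate 2, only 7 DATP-like cells held 41.4% of S100a6 UMIs. The 5% of cells with most S100a6 UMIs held 97.3% and 96.0% of them in the 2-week YFP libraries and 81.7% to 96.5% in Confetti, 4-day YFP and 4-day RFP replicate 1, against 49.7% and 40.2% in 2-week RFP and 44.2% in 4-day RFP replicate 2. In 2-week YFP replicate 2 a single cell held 2478 S100a6 UMIs, 12.01% of that library's total.

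**Figure D4:**
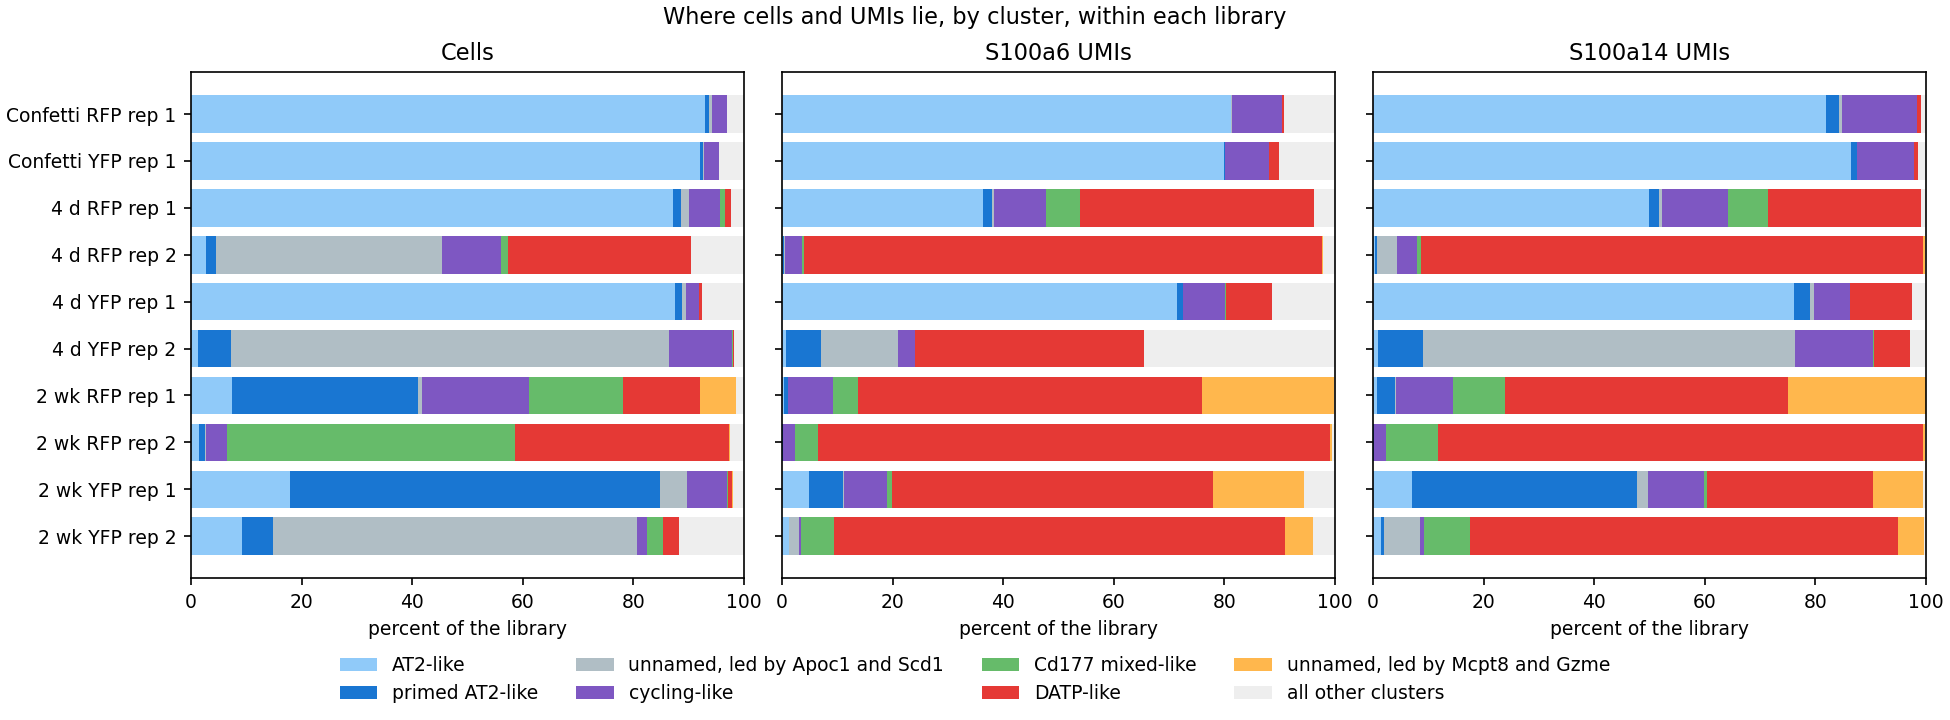
Percent of Ptprc 0 cells (left), of S100a6 UMIs (middle) and of S100a14 UMIs (right) that lie in each cluster, within each of the 10 libraries. DATP-like cells (red) are 0.720% of cells but 58.0% of S100a6 UMIs in 2-week YFP replicate 1, and in the Confetti libraries AT2-like cells (light blue) hold most of both.

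S100a4, S100a8 and S100a9 had far fewer UMIs (1478, 875 and 1188 in all, against 759189 of S100a6). S100a4, a motility-linked member also called metastasin, was at 1.67 and 1.94 CPM in Confetti, 3.16 and 40.4 CPM in 4-day RFP, 2.39 and 12.1 CPM in 4-day YFP, 3.31 and 4.22 CPM in 2-week RFP, and 7.47 and 16.8 CPM in 2-week YFP. Cells of immune clusters held 8 of 32 (Confetti YFP) to 365 of 383 of a library's S100a4 UMIs, with the highest shares in 4-day RFP replicate 2 (95.3%), 2-week YFP replicate 2 (94.2%) and 2-week YFP replicate 1 (91.9%). Summed levels of 6 immune markers, 5 of which had UMIs in every library while Ptprc was at 0 by selection, were 605 CPM in 4-day RFP replicate 2, 911 CPM in 2-week YFP replicate 2, 116 CPM in 4-day YFP replicate 2 and only 41.6 CPM in 2-week YFP replicate 1, with 9.98 to 64.0 CPM in the other 6. The part of these cells in the S100a4 levels was not tested. Within AT2-like cells S100a4 was at 0.783 and 0.691 CPM in Confetti, and it was at 0 to 10.9 CPM in the Red2Kras libraries, where it rested on few UMIs.

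**Figure D5:**
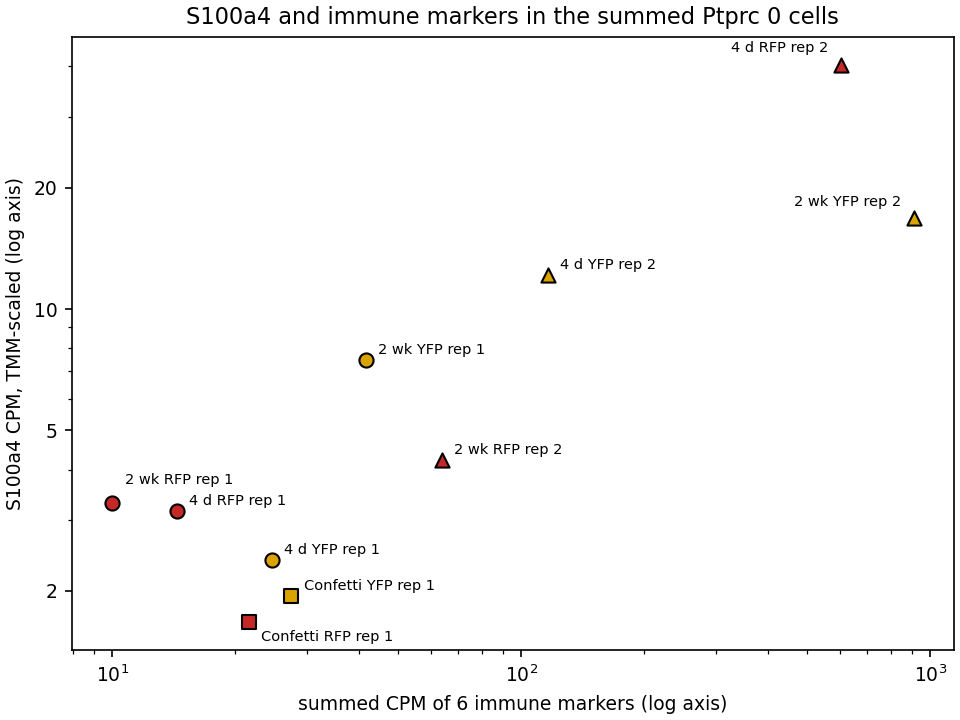
S100a4 level (CPM, log axis) against the summed level of 6 immune markers (CPM, log axis) in the summed Ptprc 0 cells of each of the 10 libraries, coloured by RFP or YFP, with squares for Confetti. The 3 libraries with the highest S100a4 (4-day RFP replicate 2 at 40.4 CPM, 2-week YFP replicate 2 and 4-day YFP replicate 2) also have the highest immune marker sums.

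S100a8 and S100a9, which pair as calprotectin, had UMIs in 3 to 66 cells of a library, and in several libraries most of them lay in a single cell. S100a8 ranged from 0.173 to 9.64 CPM and S100a9 from 0.173 to 22.8 CPM. A single cell held 71.1% of the 142 S100a8 UMIs of the Confetti YFP library, 80.3% of the 117 in 4-day YFP replicate 1 and 92.7% of the 124 in 2-week YFP replicate 1, while the Confetti RFP library had 3 S100a8 UMIs in 3 cells. In 4-day RFP replicate 1 they were spread instead, with 16 S100a8 UMIs in 16 cells and 39 S100a9 UMIs in 37 cells. The cells that held them differed between libraries. Cells of immune clusters held 94.4% of S100a8 UMIs in the Confetti YFP library and 80.3% in 4-day YFP replicate 1, but none in the Confetti RFP library and in 4-day RFP replicate 1, where all 16 UMIs lay in alveolar clusters. The 37 Ptprc-positive cells left out of 4-day RFP replicate 1 held 266 S100a8 and 587 S100a9 UMIs. Whether the spread single UMIs of that library are free RNA was not tested. In 4-day RFP replicate 2, DATP-like cells held 83.1% of S100a8 and 90.0% of S100a9 UMIs, of which a single cell carried 78.9% and 82.0%. Of 8 neutrophil markers, 4 to 7 had UMIs in each library, with sums of 4.61 and 7.28 CPM in Confetti, 4.49 and 37.4 CPM in 4-day RFP, 2.55 and 33.1 CPM in 4-day YFP, 58.8 and 32.3 CPM in 2-week RFP and 12.8 and 22.4 CPM in 2-week YFP, and Ly6g, which defines neutrophils, was at 0 in 5 of 10. The part of neutrophils in these levels was not tested. No single fold change is printed for either gene, though both enter the members' median of 1.27 given above for 2-week RFP against Confetti.

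The known partners of the S100 proteins were read from a list of 14 genes. None was called by edgeR in 2-week RFP against Confetti, where 8 of 14 had an unadjusted p under 0.05, beside 3675 of all 14828 genes. The median log2 difference was 0.98, against 0.02 for all genes, with 10 partners above 0 and 4 below. This list, too, was chosen with earlier results of these data known. Anxa1, the S100a11 partner, differed by 3.52 (SE 0.48, edgeR adjusted p = 0.0697), with 91.7 and 72.3 CPM in Confetti against 768 and 1104 CPM. Plaur, the urokinase receptor, differed by 4.74 (SE 1.32, adjusted p = 0.106) and Plat by 4.22 (SE 1.21, adjusted p = 0.111). Anxa2, which binds S100a10, differed by 1.57 (SE 0.37, adjusted p = 0.0941), although S100a10 itself differed by 0.40. Anxa6 went the other way, at -1.44 (SE 0.31, adjusted p = 0.0899), as did Fgf1, at -1.33 (SE 0.58). Over both times, RFP against YFP gave 1.54 for Anxa1 (adjusted p = 0.187), 2.80 for Plaur (adjusted p = 0.226), 2.78 for Plat (adjusted p = 0.193) and 0.94 for Anxa2 (adjusted p = 0.187). Of the 4 receptors (Ager, Tlr4, Bsg and Cd36), none was called in either comparison, and their median differences were -0.13 and -0.34. In 2-week RFP against Confetti, 2 were above 0 and 2 below, from -1.74 for Cd36 (SE 0.67) to 0.43 for Bsg (SE 0.35).

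The 11 neighbours of the chromosome 3 cluster had a median log2 difference of -0.38 in 2-week RFP against Confetti, with 4 above 0, 7 below 0 and none called. Of the 8 other S100 genes, 5 passed the filter and none was called by edgeR. In 2-week RFP against Confetti, 4 of these were above 0 and 1 below, with a median log2 difference of 0.98. The largest value, 6.04 for S100a7a (SE 2.01), rested on 115 and 70 UMIs in 2-week RFP against 2 and 0 in Confetti. S100g, which encodes the vitamin D-dependent calcium binder calbindin and lies outside the chromosome 3 cluster, ran opposite to S100a6 between RFP and YFP libraries. Among YFP libraries, both genes were highest in 2-week replicate 2. S100g was at 3447 and 3314 CPM in Confetti, 2489 and 1185 CPM in 4-day RFP, and 905 and 453 CPM in 2-week RFP. In the 4 YFP libraries of Red2Kras lungs it was at 2626 to 4105 CPM. All 4 RFP libraries lay below the 4 YFP libraries, as they did for 3.42% of the 14035 genes tested. The difference was -1.67 over both times (SE 0.46, edgeR adjusted p = 0.190) and -2.32 in 2-week RFP against Confetti (SE 0.51, adjusted p = 0.0919).

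Likeness over the 10 libraries was described by Pearson's r of log2(CPM + 1) against 14827 other genes. The libraries differ in depth, cell state and replicate, so that high values are common and carry no test. Plaur came closest to S100a6 (r = 0.985), followed by Exoc3l4 (0.981) and Sdcbp2 (0.974). Krt7, a simple-epithelial keratin, came closest to S100a14 (0.994), followed by Paqr5 (0.993) and Sdcbp2 (0.990). Glud1 led for S100a16 (0.994), Hist1h4i for S100a11 (0.980), Plau, which encodes urokinase, for S100a10 (0.951), 1810021B22Rik for S100a1 (0.969) and Blvra for S100a13 (0.963). S100a4 was closest to Cd52 (0.965), a leukocyte surface gene. S100a8 and S100a9 were closest to each other (0.932). Among members, S100a6 and S100a14 had an r of 0.956 and S100a14 and S100a16 of 0.936, while S100a1 and S100a13, which share a start region, had 0.244.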

How the data were processed

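Single-cell 3′ RNA-seq libraries were read as deposited: matrices of UMI counts per gene and cell that the authors made against GRCm38 with Cell Ranger (3.1.0 in the submitters' processing notes, 5.0.1 in the file headers). These counts were not normalized. Cells with at least 1000 genes, at most 50000 UMIs and at most 15% mitochondrial UMIs were kept if they had 0 Ptprc UMIs. No doublet caller was run. Counts were summed per library, and edgeR 4.0.16 (R 4.3.3; TMM, filterByExpr, quasi-likelihood F test) was fitted to the 6 groups over 10 libraries, with Confetti as the mean of its RFP and YFP coefficients. RFP and YFP over both times were compared in the 8 Red2Kras libraries with time as a covariate. P-values were adjusted over all genes by Benjamini-Hochberg at 0.05. They measure only the spread between these libraries of pooled lungs. The Confetti groups hold no replicate library, so in the comparisons with Confetti the spread comes from the Red2Kras groups alone. DESeq2 1.42.0 and other settings were tried as alternatives, and the script was tested on simulated data.

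Deviations of same-numbered RFP and YFP libraries from their group means correlated at 0.414 (4 days) and 0.590 (2 weeks) over 14828 genes, which is why the replicate number was taken as a pair. The labels give the number and no shared day. Cells were clustered by Louvain (scanpy 1.11.5, igraph 0.11.9; 5000 variable genes without S100 genes, 30 components, 20 neighbours, resolution 0.8) and named from marker lists. State levels used libraries with at least 20 cells. All 10 members, fixed lists and the 3 genes most like each member were named; 2 libraries rich in immune cells were left out as a check. The members and lists were chosen with earlier results of these data known. The level of 1 gene is not reported here.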

Additional observations from a re-analysis of the deposited data

How the results depend on the processing

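In edgeR's quasi-likelihood test no member was called in any comparison, and leaving out each library in turn gave 0 members called in each. Of 806 values of single genes under alternatives, 725 kept direction and call, 79 kept direction and became called, and 2 changed sign. The 806 do not cover every gene, comparison and setting that was fitted, and changes of sign outside them are not counted here. Both were S100a13 in RFP against YFP over both times: 0.059 without 2-week YFP replicate 2 (range -0.18 to 0.059 over the libraries left out), and 0.037 with the replicate block and pair 2 of 2 weeks left out. With no filter on low counts, 2 members (of 99 genes called) were called in RFP against YFP at 4 days, 2 (of 318) at 2 weeks and 2 (of 531) over both times, 4 (of 1886) in 2-week RFP against Confetti and 3 (of 240) in 4-day RFP against Confetti. With DESeq2 the counts were 1 in RFP against YFP at 2 weeks, 3 over both times, 4 in 2-week RFP against Confetti and 1 in 4-day RFP against Confetti. With the replicate block 1 member was called over both times, and with alveolar clusters only 1 in 2-week RFP against Confetti. The block changed no other call of a member. The following alternatives were chosen after seeing the data. The block with alveolar clusters only called 2 members (of 2186 genes called) in RFP against YFP at 2 weeks and 3 (of 2225) over both times. The block without pair 1 of 4 days called 2 (of 1444) over both times. Without the 2 libraries richest in immune cells, 2 (of 206) were called in 2-week RFP against Confetti (S100a6, adjusted p = 0.0293, and S100a14, adjusted p = 0.0301). The cause of these shifts was not tested.

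Over all genes, 3 were called in 2-week RFP against Confetti, and 190 without 4-day RFP replicate 1, 188 without 4-day RFP replicate 2, 0 without any 1 of the Confetti or 2-week RFP libraries, 1794 with DESeq2 and 741 with alveolar clusters only. In RFP against YFP over both times, 0 were called, and 379 without 4-day RFP replicate 1, 710 with DESeq2 and 96 with the replicate block. Groups held 1 (Confetti) or 2 libraries, UMIs differed 8.78-fold between libraries, and S100a4, S100a8 and S100a9 rest on few UMIs.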
